A study of Mus musculus with 15 samples.

Results

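The 6 microRNAs mmu-miR-188-5p, mmu-miR-202-3p, mmu-miR-690, mmu-miR-705, mmu-miR-709 and mmu-miR-1224 were followed in mouse liver grafts, out of 567 mouse miRNAs on the array (the prefix mmu, for mouse, is left out below). They were chosen by the wide variation of their array signals in these same grafts. Their levels and differences are therefore descriptions, with no test. The choice also took their annotation to rest on little evidence. Arrays cannot show this, and miR-188, miR-202 and miR-1224 are also annotated in human. MiRNA expression was measured on 15 Agilent arrays, 1 graft per array, in 5 groups of 3. The allografts were livers of B10.BR (H2-Kk) donors in B10.D2 (H2-Kd) recipients, all male mice, removed on day 5, 8, 14 or 100 after transplantation without immunosuppression. The control group was syngeneic grafts of day 5. The strain field of the control arrays names the allogeneic pair as well, and their titles were followed in calling them syngeneic. The strain of the syngeneic grafts and the age of the mice are not given in the sources used here, and no syngeneic graft of a later day was analysed here.

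MiRNAs are short RNAs of about the length of the sequences below that guide the silencing of mRNAs, mainly through the seed, bases 2 to 8 from the 5′ end. A well-supported miRNA is cut from a hairpin that leaves both arms in sequencing libraries, whereas several names of early catalogs rest on few reads, or match fragments of other RNAs. The miRNAs miR-188, miR-202 and miR-1224 are also annotated in human, while miR-690, miR-705 and miR-709 are known from rodents. MiR-188 lies in a group of miRNA genes inside the chloride channel gene Clcn5, miR-202 is best known from the gonads, and miR-1224 is a mirtron, cut from a short spliced intron. MiR-709 has been described in the cell nucleus, and miR-690 in vesicles released by macrophages. An array reports the hybridization of a probe and cannot tell a processed miRNA from another small RNA of the same letters.

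The mature sequences are shown because the probes of the array read them, and because they differ in their share of G. They are from RefSeq (GRCm38.p6), with the seed in capitals, and 5 of the 6 miRNAs had an entry; for miR-1224, whose array name gives no arm, the 5p arm is shown.
miR-188-5p: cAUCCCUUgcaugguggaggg
miR-202-3p: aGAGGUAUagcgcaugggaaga
miR-690: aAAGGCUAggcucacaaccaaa
miR-705: gGUGGGAGguggggugggca
miR-1224-5p: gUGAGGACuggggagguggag
No seed was shared among these 5 miRNAs. G made up 70.0% of miR-705 and 61.9% of miR-1224-5p, against a median of 26.9% over the 1679 mature mouse sequences of the RefSeq table, of which 99.9% and 99.3% held a smaller share of G. MiR-202-3p (40.9% G) and miR-188-5p (38.1% G) stood above that median, and miR-690 (18.2% G) stood below it. MiR-705 and miR-1224-5p each held a run of 4 G. The comparison could not be made among the miRNAs of the array, because only 12 of the 103 tested array names (11.7%) matched a RefSeq mature name. The seed of miR-202-3p occurs in 1 other RefSeq mouse miRNA, let-7j, that of miR-188-5p in 1, that of miR-705 in 3, and those of miR-690 and miR-1224-5p in none.

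In RefSeq, the hairpins lie in 6 different places. Mature miR-188-5p is read from chrX:7248031-7248051 on the minus strand, within Clcn5. MiR-202-3p is read from chr7:139957695-139957716 on the minus strand, within the long noncoding RNA gene Gm16201. The positions of miR-690 (chr16:28599940-28599961, minus strand) and miR-705 (chr6:85336341-85336360, minus strand) lie within the protein-coding genes Fgf12 and Rab11fip5. MiR-1224-5p is read from chr16:20604452-20604472 on the plus strand, within Vwa5b2, and the hairpin of miR-709 lies within Rfx1 (chr8:84086099-84086186). MiR-188-5p and miR-202-3p have relatives on the array, which were not detected: the opposite arms miR-188-3p and miR-202-5p, and both arms of miR-362, miR-501 and miR-532, which lie within 10 kb of miR-188, were detected on 0 of 15 arrays.

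Signals of the 2 to 4 probes for each miRNA were summed and scaled to the 75th percentile of each array's miRNAs that were detected everywhere, so that 0 on the log2 scale is that percentile. Values below the floor of -5.21 were raised to it, which touched 3 of the 90 values of the 6 miRNAs. MiR-709 and miR-1224 were detected on all 15 arrays, miR-202-3p and miR-690 on 13, and miR-188-5p and miR-705 on 9. All 6 were among the 103 miRNAs in the fit, for which detection in 1 whole group of 3 was required, so a miRNA that is dim in most groups entered through the group where it is bright. The arrays came on 2 slides: slide 1 held day 8, day 14 and syngeneic replicates 1 and 2, and slide 2 held day 5, day 100 and syngeneic replicate 3. Replicate 1 of day 100 was noisier than the others, with an additive error of 13.1 against 2.67 to 3.66 intensity units on the other 14 arrays. Hepatocyte miRNAs were bright in all grafts (miR-122, miR-192 and miR-194 were detected on 15 of 15 arrays).

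**Figure D1:**
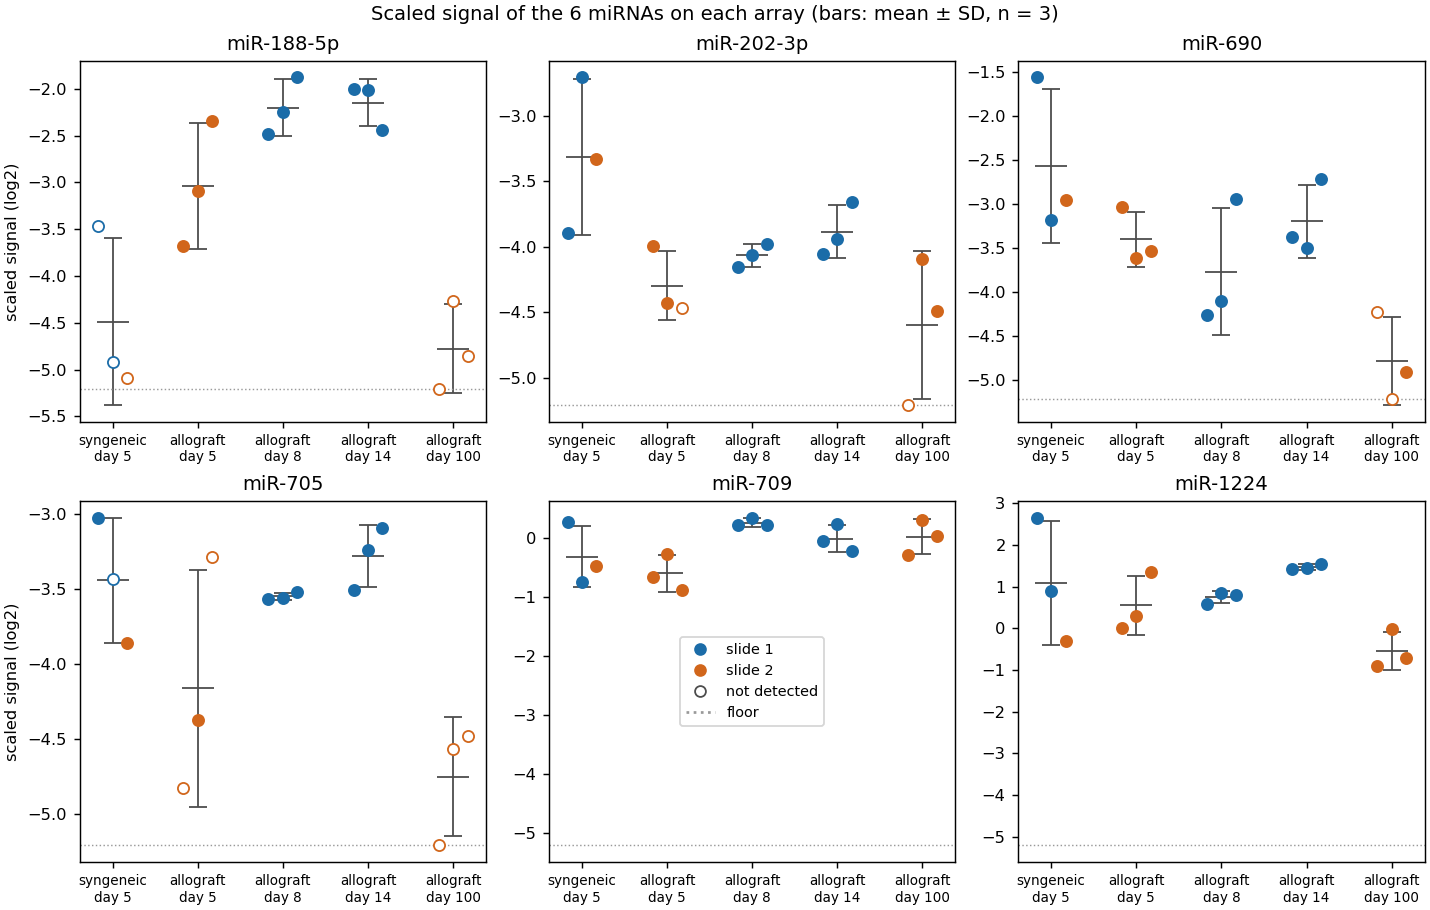
Scaled signal (log2) of each of the 6 miRNAs on each of the 15 arrays, by group, with the mean and SD (n = 3). Colors mark the slides, open circles mark arrays where the miRNA was not detected, and the dotted line is the floor; each panel has its own axis. MiR-188-5p was detected only on the arrays of day 5, 8 and 14, and the 3 day 8 and 3 day 14 arrays of miR-705 and miR-1224 lie close together.

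MiR-188-5p had the largest share of its variation between the groups among the 6 miRNAs. It was detected on all 9 allograft arrays of day 5, 8 and 14, and on none of the 6 syngeneic and day 100 arrays. In the syngeneic grafts its scaled log2 signals were -3.47, -4.91 and -5.09, and on day 100 they were -5.21, -4.27 and -4.85. On day 5 they were -3.68, -3.10 and -2.34. On day 8 they were -2.48, -2.24 and -1.88, and on day 14 they were -2.00, -2.01 and -2.44. The day 8 and day 14 arrays all lay above the syngeneic and day 100 arrays, whereas replicate 1 of day 5 lay below replicate 1 of the syngeneic grafts. Since the signal in the syngeneic grafts was not well above background, only a bound can be given: miR-188-5p was at least 2.47-, 4.41- and 4.57-fold higher on days 5, 8 and 14, respectively. Against day 100 the bounds were 2.42-, 4.32- and 4.48-fold. These bounds take no account of the slide. With the slide as a block, the differences from the syngeneic grafts on days 5, 8 and 14 were 2.05, 1.99 and 2.04 (log2). Each allograft day lies on 1 slide, so these values rest on the syngeneic arrays of that slide. For day 5 this was replicate 3 alone, and for days 8 and 14 replicates 1 and 2. MiR-188-5p was not detected on any of them, so these differences are not bounds. The bounds on the log2 scale were 1.30, 2.14 and 2.19. Days 8 and 14 lie on the other slide than day 100. With the slide as a block, day 14 minus day 100 was 1.73 (moderated SE 0.73), where the bound was 2.16. The blocked value rests on syngeneic replicates 1 and 2 on slide 1 and replicate 3 alone on slide 2. Neither the syngeneic grafts nor day 100 were well above background on any array, so no fold is given between them. The order of the means was day 14 (-2.15 ± 0.25; SD, n = 3), day 8 (-2.20 ± 0.31) and day 5 (-3.04 ± 0.67), and the means of day 14 and day 8 did not differ beyond the spread of their arrays.

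The 4 probes for miR-188-5p gave differences from the syngeneic grafts of 0.42 to 0.59 on day 5, 1.21 to 1.37 on day 8 and 1.23 to 1.42 on day 14 (log2). Each correlated at r = 0.91 to 0.94 over the 15 arrays with the summed signal, which includes the probe itself. These probe values were compressed by the floor, which 6 or 7 arrays per probe reached. The miRNA was dim, from 69.0 to 225.6 intensity units where it was detected. With normexp correction of the raw median intensities, which adds an offset of 50 to every spot, its differences were -0.20, 0.11 and 0.05 on days 5, 8 and 14, respectively, and which of these changes moved them was not tested.

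Markers of blood cells moved in the same grafts. The summed scaled signal of the leukocyte miRNAs, of which 4 of 5 were tested, was 0.629 to 1.70 in the syngeneic grafts. On days 5, 8, 14 and 100 it lay at 2.93 to 8.00, at 1.93 to 2.38, at 2.61 to 3.85 and at 1.06 to 1.44. Within that list, miR-155, which is induced in activated lymphocytes and macrophages, was detected on 0 of 3 syngeneic arrays, on 9 of 9 arrays of day 5, 8 and 14, and on 1 of 3 arrays of day 100. MiR-150, a miRNA of mature lymphocytes, was detected on 0 of 15 arrays. The part of such cells in the signal of miR-188-5p was not tested, and in whole grafts more cells of a type and more RNA per cell cannot be told apart.

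MiR-202-3p was brightest in the syngeneic grafts. There its scaled log2 signals were -3.90, -2.71 and -3.33. They were -3.99, -4.43 and -4.46 on day 5, and -4.16, -4.06 and -3.98 on day 8. They were -4.05, -3.94 and -3.66 on day 14, and -5.21, -4.09 and -4.49 on day 100, where replicate 1 stood at the floor. All arrays of day 5, 8 and 100 lay below the 3 syngeneic arrays, and replicate 3 of day 14 lay within their range. The differences from the syngeneic grafts on days 5, 8, 14 and 100 were -0.98, -0.75, -0.57 and -1.28, respectively, each with a moderated SE of 0.30. Without scaling between arrays the value on day 14 was 0.20, where the median of all tested miRNAs was itself 0.71, and in every other setting run miR-202-3p kept its negative sign on all 4 days. Replicate 3 of day 5 and replicate 1 of day 100 were not detected. Means of neighboring groups among the allografts differed by less than the SE of a difference: they were -3.89, -4.07, -4.30 and -4.60 for days 14, 8, 5 and 100. Both probes for miR-202-3p gave negative differences on all 4 days, from -1.10 to -0.48.

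MiR-690 had its lowest mean on day 100 and its highest single value in a syngeneic graft. Its scaled log2 signals were -1.56, -3.17 and -2.95 in the syngeneic grafts, and -3.04, -3.61 and -3.54 on day 5. They were -4.26, -4.10 and -2.93 on day 8. They were -3.37, -3.49 and -2.72 on day 14, and -4.23, -5.21 and -4.91 on day 100, where 1 of 3 arrays was detected. The day 100 arrays all lay below the syngeneic ones, and the other days overlapped with them. From the syngeneic grafts it differed by -0.84, -1.21, -0.63 and -2.22 on days 5, 8, 14 and 100, respectively, with a moderated SE of 0.44. The value of day 100 rests on a group with 1 detected array, and with normexp on median intensities it was -0.85. Without replicate 1 of the syngeneic grafts these values were -0.33, -0.70, -0.13 and -1.72. Without scaling the value on day 14 was 0.14, below that median of 0.71. Between the means of the syngeneic grafts (-2.56 ± 0.87; SD, n = 3), day 14 (-3.19 ± 0.42), day 5 (-3.39 ± 0.31) and day 8 (-3.77 ± 0.72), no neighbors in this order differed beyond the spread of their arrays.

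MiR-705 was weak on all arrays, from not detected to 118.9 intensity units. It was detected on all 6 arrays of day 8 and day 14, on 2 of 3 syngeneic arrays, on 1 of 3 arrays of day 5 and on 0 of 3 arrays of day 100. Its scaled log2 signals were -3.03, -3.44 and -3.86 in the syngeneic grafts, -3.57, -3.56 and -3.52 on day 8, and -3.51, -3.24 and -3.10 on day 14. They were -4.83, -4.37 and -3.29 on day 5, and -5.21, -4.56 and -4.48 on day 100. The day 100 arrays lay below all arrays of the syngeneic grafts, day 8 and day 14, which were at least 1.80-, 1.67- and 2.01-fold higher. The syngeneic mean behind the first bound includes 1 array without detection, and day 8 and day 14 lie on the other slide than day 100. With the slide as a block, day 14 minus day 100 was 0.84 (log2, moderated SE 0.59), where the bound on that scale was 1.01. As for miR-188-5p, the blocked value rests on the few syngeneic arrays of each slide. With the mean log2 over its probes, the difference of day 100 from the syngeneic grafts was -0.20. On day 5, day 8 and day 14 the differences from the syngeneic grafts were -0.72, -0.11 and 0.16, with a moderated SE of 0.34, and the arrays overlapped. The sign on day 14 turned with quantile normalization (-0.21), the brightest probe alone (-0.14), normexp on median intensities (-0.44), the slide as a block (-0.05) and without syngeneic replicate 3 (-0.05). That on day 8 turned without syngeneic replicate 1 (0.10) and without scaling (0.52, where the median of all tested miRNAs was 0.69). Its 4 probes were detected on 2, 3, 5 and 9 arrays, and stood at the floor on 5 to 11 arrays.

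MiR-709 was bright on every array and varied little. Its scaled log2 signals were 0.26, -0.74 and -0.47 in the syngeneic grafts, and -0.66, -0.27 and -0.88 on day 5. They were 0.21, 0.34 and 0.21 on day 8. They were -0.06, 0.24 and -0.22 on day 14, and -0.28, 0.30 and 0.04 on day 100. Each allograft group overlapped with the syngeneic arrays, those of day 8, 14 and 100 through syngeneic replicate 1 alone. Set against the syngeneic grafts, the differences on days 5, 8, 14 and 100 were -0.29, 0.57, 0.30 and 0.34, with a moderated SE of 0.25, and that of day 5 was 0.25 without scaling, below the median of 0.54 over all tested miRNAs. The mean was highest on day 8 (0.26 ± 0.08; SD, n = 3) and lowest on day 5 (-0.60 ± 0.31). These days lie on different slides, so slide and day cannot be told apart in this difference. The means of day 100 (0.02 ± 0.29) and day 14 (-0.01 ± 0.23) were alike within the spread of their arrays.

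The 2 probes for miR-709 gave different values on day 100, as the plot of its probes shows. The brighter probe, A_54_P2099, was 0.39 higher on day 100 than in the syngeneic grafts, and the dimmer probe, A_54_P2098, was 0.40 lower (log2). Without the noisier replicate 1 of day 100, where A_54_P2098 was not well above background on any spot (-5.05), these differences were 0.53 and -0.01. On day 5, 8 and 14 both probes gave nearly the same differences (-0.27 and -0.38, 0.58 and 0.58, 0.31 and 0.32). The signal of A_54_P2099 was 9.63 to 12.8 times that of A_54_P2098 on the arrays of day 5, 8 and 14, 14.7 to 26.1 times on day 100, with the highest on replicate 1, and 6.80, 12.1 and 15.1 times in the syngeneic grafts. Since the sum follows the brighter probe, the mean over both probes on the log2 scale put the difference of miR-709 on day 100 at -0.0018.

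**Figure D2:**
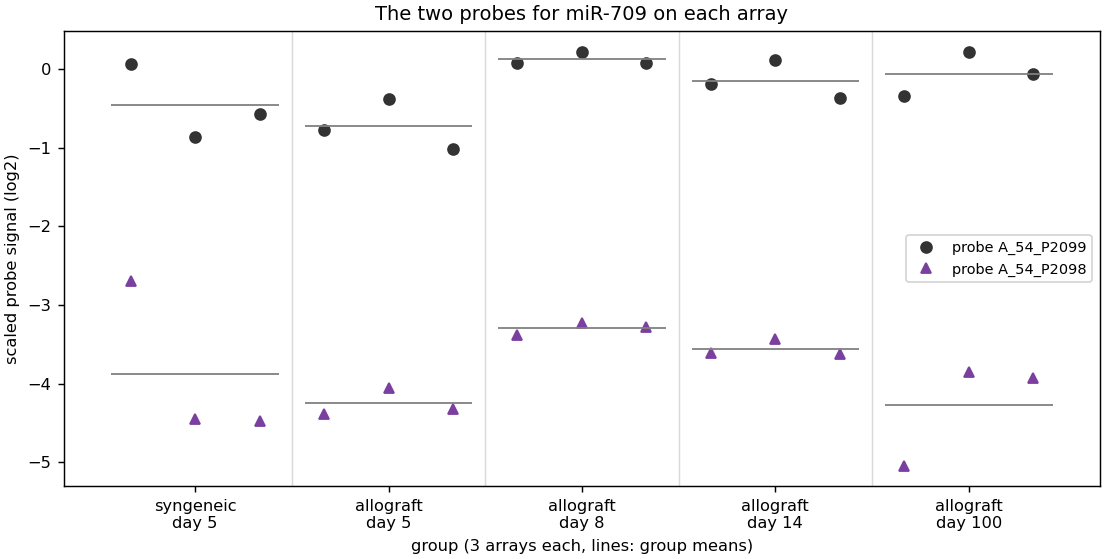
Scaled log2 signal of both probes for miR-709 on each of the 15 arrays, in replicate order within each group, with lines at the group means. The probes run in parallel on day 5, 8 and 14, and the lowest point of A_54_P2098 is replicate 1 of day 100 (-5.05), the noisier array.

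MiR-1224 was bright on every array and spread widely in the syngeneic grafts. There its scaled log2 signals were 2.66, 0.91 and -0.31. They were 0.00, 0.31 and 1.36 on day 5, and 0.59, 0.85 and 0.81 on day 8. They were 1.41, 1.44 and 1.55 on day 14, and -0.89, -0.03 and -0.71 on day 100. The syngeneic arrays thus spanned nearly the whole range, whereas the day 14 arrays lay above all arrays of day 5, day 8 and day 100, and the day 100 arrays lay below all other allograft arrays. Relative to the syngeneic grafts, the values of days 5, 8, 14 and 100 differed by -0.53, -0.33, 0.39 and -1.63, with a moderated SE of 0.56. Without replicate 1 of the syngeneic grafts they were 0.26, 0.45, 1.17 and -0.84, so that the sign of the first pair turned. With the slide as a block they were 0.87, -1.03, -0.31 and -0.23, and the sign on day 5 and day 14 turned. Days 5 and 100 were there set against syngeneic replicate 3 alone, and days 8 and 14 against replicates 1 and 2. Without scaling the values on day 5 and day 8 were 0.01 and 0.30, below the medians of 0.54 and 0.69 over all tested miRNAs. Between allograft days the difference was 0.72 for day 14 minus day 8 (moderated SE 0.56), within slide 1. For day 14 minus day 100, which lie on different slides, it was 2.01, and -0.08 (moderated SE 0.77) with the slide as a block, so that slide and day cannot be told apart in it. The 3 brighter probes for miR-1224 correlated with the sum, of which they are parts, at r = 0.96 to 1.00, and the dimmest was detected on 4 arrays. Their differences from the syngeneic grafts were not alike. On day 8 A_54_P4402, A_54_P4403 and A_54_P4404 gave 0.26, -0.32 and -0.48, so the sign depended on the probe. On day 14 they gave 1.05, 0.39 and 0.22, and on days 5 and 100 all 3 were negative.

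Since day 14 and day 8 share a slide, as do day 100 and day 5, differences within these pairs do not cross slides. MiR-188-5p was 0.05 higher on day 14 than on day 8 and at least 2.42-fold higher on day 5 than on day 100. On the log2 scale, with moderated SEs of 0.25 to 0.56, miR-690 differed by 0.57 for day 14 minus day 8 and by -1.39 for day 100 minus day 5, the latter with no overlap of arrays. MiR-709 was 0.62 higher on day 100 than on day 5, and the difference of day 14 minus day 8 was -0.27. Its 2 probes differed in the former. Relative to the syngeneic grafts, A_54_P2099 was -0.27 on day 5 and 0.39 on day 100. The dimmer A_54_P2098 was -0.38 and -0.40, the latter -0.01 without the noisier replicate 1 of day 100. MiR-1224 on day 100 differed from day 5 by -1.10, without overlap. The arrays of day 14 and day 8 did not overlap for 2 of the 6 miRNAs (miR-705 and miR-1224, higher on day 14), against 46.6% of all tested miRNAs. Those of day 100 and day 5 did not overlap for 3 (miR-188-5p, miR-690 and miR-1224, lower on day 100), against 46.6% as well.

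Against the syngeneic arrays, the plot of differences sets all 4 days side by side. The median difference of the 6 miRNAs was -0.62, -0.22, 0.23 and -1.30 on days 5, 8, 14 and 100 (log2), and with undetected groups at their bound the last was -1.06. The medians over all 103 tested miRNAs were 0.12, 0.14, 0.07 and 0.00. The allograft days share the same 3 syngeneic arrays, so these values are not independent of each other. On day 5 the 3 allograft arrays did not overlap with the 3 syngeneic arrays for 1 of the 6 miRNAs (miR-202-3p, lower), against 30.1% of all tested miRNAs. On day 8 this held for 2 (miR-188-5p, higher, and miR-202-3p, lower; 51.5% of all), on day 14 for 1 (miR-188-5p, higher; 54.4%) and on day 100 for 3 (miR-202-3p, miR-690 and miR-705, all lower; 29.1%). Between day 14 and day 100 it held for 5 of the 6, all higher on day 14 (65.0% of all in either direction), and the exception was miR-709. These days lie on different slides. The choice of the 6 used these same arrays, and nothing is read from these counts.

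**Figure D3:**
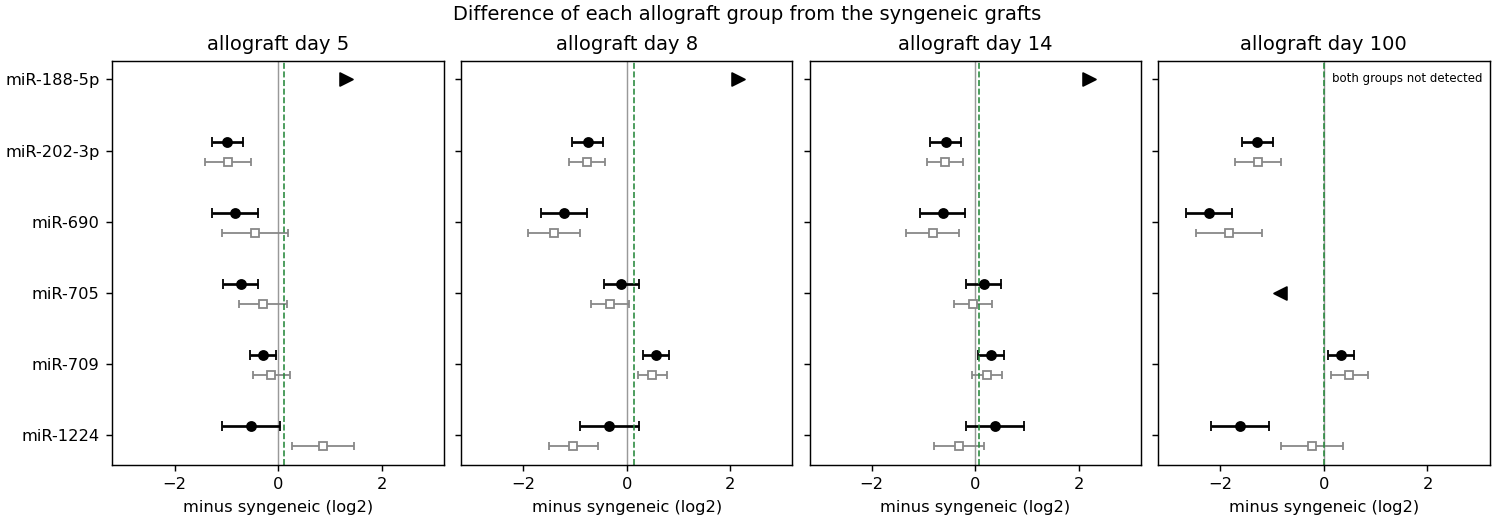
Difference of each allograft group from the syngeneic grafts (log2) for the 6 miRNAs, with the moderated SE of the fit to all arrays (black circles) and with the slide as a block (gray squares). Triangles, drawn without a square, are bounds where 1 of the groups was not detected on any array. The dashed line is the median of all 103 tested miRNAs. MiR-202-3p and miR-690 lie left of 0 on all 4 days, and the circle and square of miR-1224 lie on opposite sides of 0 on day 5 and day 14.

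Not all of the 6 varied widely. The SD over the 15 arrays was 1.25 for miR-188-5p, 0.96 for miR-1224 and 0.91 for miR-690 (log2), ranks 4, 6 and 12 of the 103 tested miRNAs. It was 0.68 for miR-705 (rank 22) and 0.56 for miR-202-3p (rank 32). For miR-709 it was 0.41 (rank 63), below the median of 0.45 over all tested miRNAs, so wide variation does not describe this miRNA. The miRNA with the largest SD was miR-720, a name now assigned to a fragment of a tRNA, at 1.73. Without replicate 1 of day 100 the ranks of the 6 were 4 (miR-188-5p), 9 (miR-690), 12 (miR-1224), 27 (miR-705), 44 (miR-202-3p) and 53 (miR-709).

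The spread had different sources in the 6 miRNAs. For miR-188-5p 85.1% of the sum of squares lay between the 5 groups, against a median of 65.6% over all tested miRNAs, while for miR-1224 it was 53.8% and for miR-709 56.6%. Without syngeneic replicate 1 the last pair was 74.1% and 76.5%, against a median of 70.6%. The SD within groups was 0.77 for miR-1224, rank 4 of 103, 0.60 for miR-690 and 0.57 for miR-188-5p, against a median of 0.31, and without syngeneic replicate 1 that of miR-1224 was 0.50 (rank 12). The share between the 2 slides was 58.0% for miR-705 and 50.4% for miR-1224, ranks 2 and 4 of 103. It was 33.4% for miR-188-5p and 16.7% to 19.7% for the others. Since days lie on slides, slide and day cannot be told apart in these shares. Where a miRNA was detected, the SE over its spots on an array was small beside this spread. As medians over these arrays it was 0.97% of the signal for miR-709, 1.58% for miR-1224 and 2.08% for miR-188-5p. It was 2.74% for miR-690, 3.98% for miR-202-3p and 5.36% for miR-705. On arrays without detection this SE was 5.12% to 18.4%, and none is given where the signal was negative. The spots of an array share its labeled RNA and hybridization, so this SE leaves out any error common to them.

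**Figure D4:**
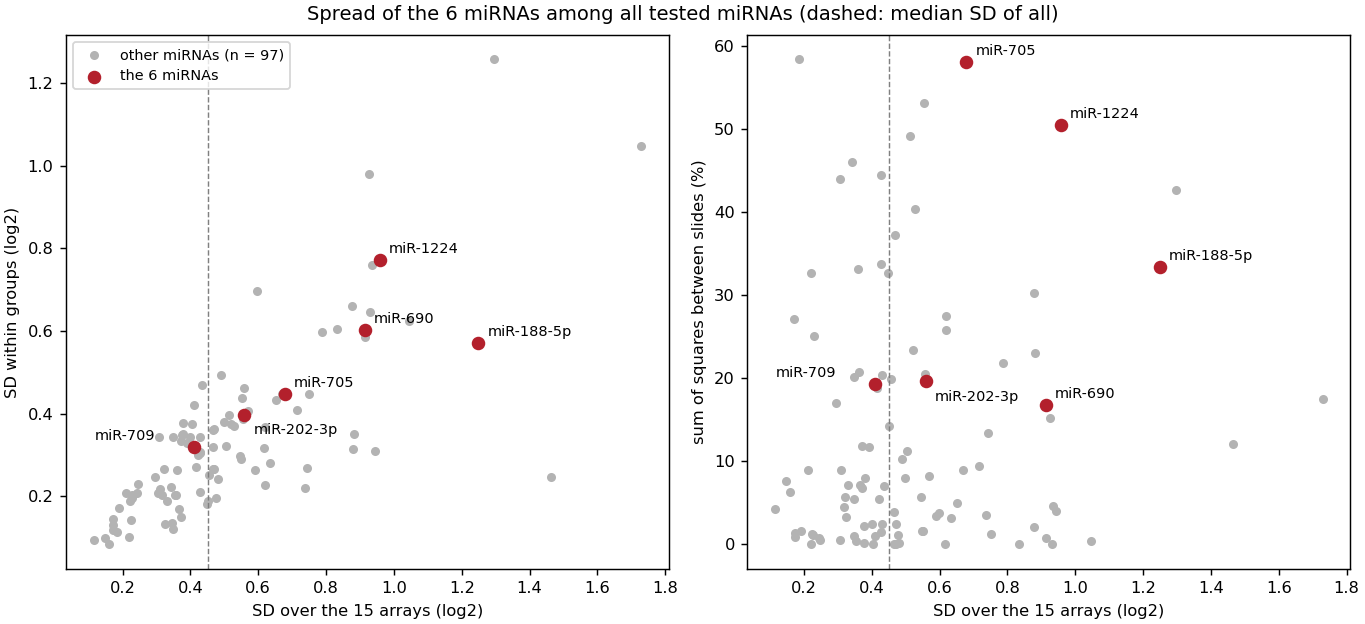
Left, SD within groups against SD over the 15 arrays (log2) for the 103 tested miRNAs, with the 6 miRNAs in red. Right, the percentage of the sum of squares that lies between the 2 slides against the same SD. MiR-188-5p, miR-1224 and miR-690 lie far right of the dashed median and miR-709 left of it, and miR-705 and miR-1224 lie near the top of the right panel.

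Some of the 6 were high and low on the same arrays. MiR-705 and miR-1224, which are richest in G, correlated at r = 0.87 over the 15 arrays (Spearman's rho 0.94), at 0.86 within slide 1 (n = 8) and at 0.76 within slide 2 (n = 7). After the group means were removed r was 0.75. For miR-188-5p and miR-1224 r was 0.64, and 0.89 after the group means were removed, although on slide 1 it was -0.14 before that step. MiR-690 and miR-1224 correlated at 0.67, and their deviations from the group means at 0.37, or -0.30 without syngeneic replicate 1. Over the 15 arrays miR-709 correlated with none of the others above r = 0.33, and miR-202-3p at most at r = 0.53, with miR-705. For miR-202-3p and miR-690 r was 0.45 and Spearman's rho 0.78. Deviations of miR-709 from the group means correlated at 0.58 with miR-188-5p and 0.48 with miR-1224, or 0.17 and -0.18 without syngeneic replicate 1. Within single slides, the values of miR-709 reached r = -0.91 with miR-202-3p (slide 1) and -0.85 with miR-690 (slide 2). Over the 15 pairs of the 6 miRNAs the median r was 0.35, against 0.08 over all 5253 pairs of tested miRNAs, and for deviations from the group means it was 0.18 against 0.19. The latter pair was 0.36 against 0.18 without replicate 1 of day 100, and 0.16 against 0.20 without syngeneic replicate 1. Within slide 1 it was 0.57 against 0.03, and within slide 2 it was 0.08 against 0.20. Before the group means were removed, the medians were -0.04 against 0.12 within slide 1 and 0.29 against 0.12 within slide 2. The arrays share slides, groups and scaling, and no p is given for these correlations.

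**Figure D5:**
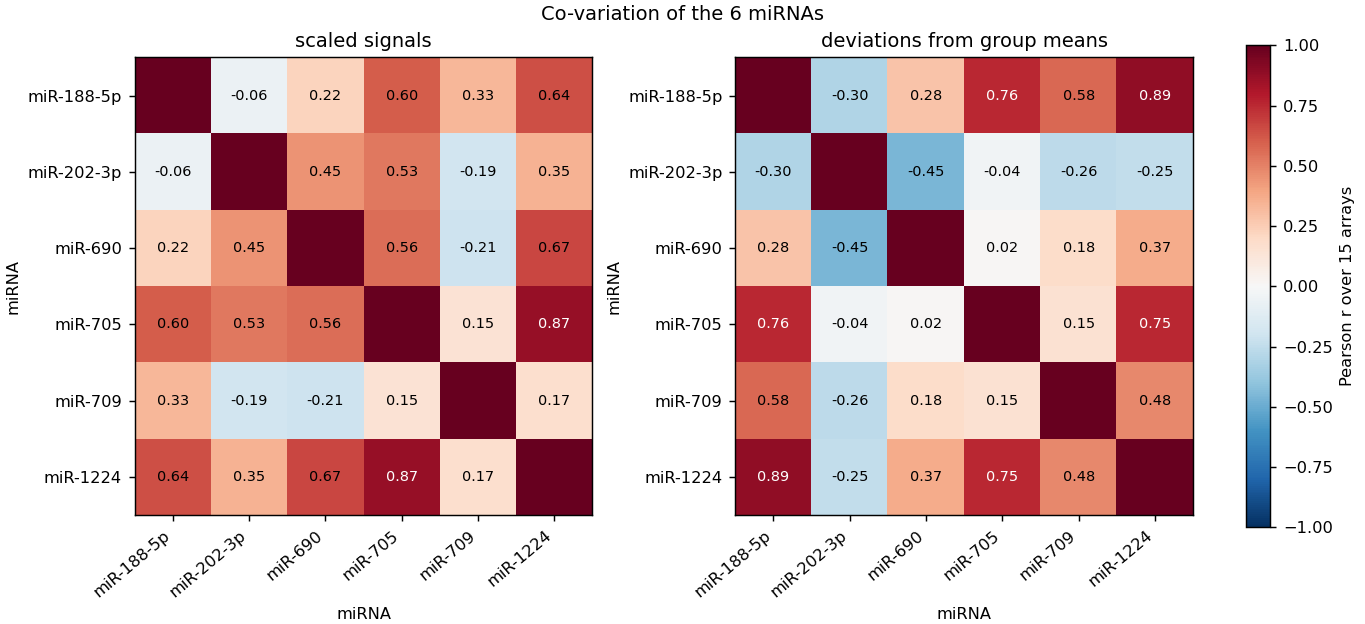
Pearson correlation between the 6 miRNAs over the 15 arrays, for scaled log2 signals (left) and for deviations from the group means (right). MiR-705 and miR-1224 form the strongest pair on the left (0.87), and miR-188-5p and miR-1224 on the right (0.89).

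Single arrays stood apart from the others. Syngeneic replicate 1 held the highest value of miR-690, miR-705 and miR-1224, that is 3 of the 6 miRNAs. It held that of 6 of the 103 tested (5.83%), these 3 included. On this array miR-1224 reached 3249 intensity units, against 740.5 and 496.0 on the other syngeneic arrays, and miR-690 reached 174.7 against 43.8 and 79.9. The lowest values of miR-188-5p, miR-202-3p, miR-705 and miR-1224 were on the noisier replicate 1 of day 100, which alone held the lowest value of 23 of the 103 tested (22.3%). There the first 3 had negative processed intensities and were set to the floor. The choice of the 6 by their variation used these same arrays, so nothing is read from these counts.

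For each of the 6, the other tested miRNAs whose log2 signals ran most alike over the 15 arrays were sought among 97. For miR-188-5p these were miR-155 (r = 0.92) and miR-210, a miRNA induced by hypoxia (0.85), and these r were 0.84 to 0.91 without replicate 1 of day 100 or without the 2 most distant arrays. Like miR-188-5p, miR-210 was detected on 0 of 6 syngeneic and day 100 arrays, and on 2, 3 and 3 arrays of day 5, 8 and 14. For miR-705 they were miR-30d (0.87) and miR-680 (0.82), and for miR-1224 miR-680 (0.83) and miR-689 (0.82), further names from early catalogs. For miR-690 they were miR-494 (0.64) and miR-689 (0.55), which fell to 0.36 and 0.16 without the 2 most distant arrays. For miR-202-3p they were miR-212 (0.72, and 0.45 without the 2 most distant arrays) and miR-29b (0.63), and for miR-709 let-7d (0.64) and miR-23b (0.63). Some of these signals stood at the floor in whole groups. This held for miR-212 on days 8 and 14, for miR-210 in the syngeneic grafts and on day 100, and for miR-155 in the syngeneic grafts. Their r thus rest in part on values set to the floor. All miRNAs named here were picked as the most alike of many, and nothing of function is read from them.

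Markers of other cells differed between the groups in which miR-202-3p and miR-690 were lower. The summed scaled signal of the 3 hepatocyte miRNAs was 29.1 to 34.1 in the syngeneic grafts. On days 5, 8, 14 and 100 it lay at 21.0 to 25.04, at 22.2 to 24.0, at 12.9 to 16.6 and at 22.3 to 26.8. The erythroid miRNAs miR-451, miR-144 and miR-486 (2 of 3 tested) had a summed signal of 0.597 to 1.21 in the syngeneic grafts. On days 5, 8, 14 and 100 it lay at 1.097 to 1.99, at 1.58 to 1.62, at 1.82 to 2.48 and at 0.685 to 1.45, and miR-486 was detected on 1 array. The summed signal of endothelial miR-126-3p and miR-126-5p (1 of 2 tested, miR-126-3p) was 0.780 to 0.959 in the syngeneic grafts and 0.941 to 1.12 in the allografts. Of the 4 smooth muscle and stromal miRNAs 3 were on the array and 1, miR-214, was tested; miR-145 was detected on 0 of 15 arrays. The part of these cells in the signals of the 6 miRNAs was not tested.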

How the data were processed

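Total RNA of liver grafts (100 ng per array) was hybridized to Agilent mouse miRNA arrays in 1 color. The authors deposited scanner output with an intensity per spot, from which the Feature Extraction software of Agilent (9.5.1.1 in the headers) had subtracted background. These intensities are linear and not normalized between arrays. Raw medians, flags and a summed signal for each miRNA come with them. The value table of the series was not used here. The paper's methods give no normalization.

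Control and outlier spots were removed, the spots of a probe averaged and the probes of a miRNA summed. Detection of a miRNA required 1 probe with a share of 0.5 or more of its spots flagged well above background. The scaling factor of an array was its 75th percentile over the 52 miRNAs that every array detected. A floor of 0.0270 was set before log2 transformation, which is the median, over arrays, of the lowest signal detected. The 103 mouse miRNAs detected throughout some group were fitted with limma 3.58.1 (R 4.3.3) with 5 group means, and its moderated SE is given. The fit was checked on simulated data. Other steps used Python 3.11.15, numpy 2.4.6 and pandas 2.3.3. A bound is the mean of the brighter group over, on each array of the dimmer group, the higher of the lowest detected signal and the miRNA's own.

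The labels say that 3 mice were killed per group. The 6 miRNAs and the marker lists were chosen with earlier results of these data known. Beside the 6 and the lists, the text names the 2 tested miRNAs most correlated with each of the 6, and miR-720. A list of G-rich tested miRNAs was planned and not used, since too few names matched RefSeq. The number of arrays per group limits the precision. The alternatives were 4 other scalings, 3 other summaries of the probes, normexp on median intensities (offset 50), a floor divided by 4, the filter for detection on all 15 arrays, slide or replicate number as a block, only the groups compared, and each array left out. The runs without day 100 replicate 1 and without syngeneic replicate 1 for spread, co-variation and the probes of miR-709, and the slide as a block for day 14 minus day 100, were chosen after seeing the data.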

Additional observations from a re-analysis of the deposited data

How the results depend on the processing

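Of the 24 differences of single miRNAs from the syngeneic grafts, 13 had the same sign in every setting run: miR-188-5p on days 8 and 14, miR-202-3p and miR-690 on days 5, 8 and 100, miR-705 on days 5 and 100, miR-709 on days 8 and 14, and miR-1224 on day 100. The other 11 had the opposite sign in some setting, in 23 of all 440 values. Of these 23, 6 were without scaling, where the median of all tested miRNAs was 0.33 to 0.71, and relative to that median these 6 were negative (-0.56 to -0.17), as with scaling. The median difference of the 6 miRNAs moved by more than the replicate SD of 0.51 in these cases. Without scaling it was -0.085, 0.41 and 1.01 on days 5, 8 and 14, where the median of all tested miRNAs was itself 0.54, 0.69 and 0.71. On day 100 it was -0.62 with the mean log2 over probes, -0.57 with normexp, -0.65 over the 2 miRNAs detected on all 15 arrays, and -0.56 with the slide as a block. The cause was not tested. Leaving out 1 array gave -0.96 to -0.16, -0.54 to 0.28, -0.18 to 0.48 and -1.47 to -0.97 on days 5, 8, 14 and 100, the upper value each time without syngeneic replicate 1. On day 14 the median was -0.19 with normexp and -0.18 for the slide as a block. With the replicate block the medians were -0.62, -0.22, 0.23 and -1.30, the same as without it, since each number occurs once in each group. The replicate numbers did not pair the arrays: deviations from the group means of same-numbered arrays correlated at -0.65 to 0.45, and at over 0.1 in 9 of 30 pairs. Signals near background limit what can be said of miR-188-5p, miR-202-3p, miR-690 and miR-705. Of the values of all tested miRNAs, 8.28% stood at the floor.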
